A study of Mus musculus with 4 samples.

Results

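PTBP1 (polypyrimidine tract binding protein 1) was mapped on RNA of whole heart from wild-type C57BL/6 mice by eCLIP, and the regions described here are the clusters called on the mitochondrial chromosome, chrM. In this assay ultraviolet light links proteins to the RNA they touch, the RNA is cut to fragments, and an antibody pulls down those held by 1 protein. The series holds 2 PTBP1 immunoprecipitates and 2 size-matched inputs, which are the same lysates without that selection. No PTBP1 mutant or treated heart is among the samples, and whole heart mixes cardiomyocytes with fibroblasts, endothelial cells and blood cells. Every row with chromosome chrM was taken from the 2 tables of clusters, 161 of 376266 clusters (0.0428%) in replicate 1 and 181 of 388894 (0.0465%) in replicate 2. Each cluster has a log2 fold of the immunoprecipitate over its input and a −log10 p, both the authors' own. The reads behind a cluster are unknown. The labels do not state separate animals for the 2 lysates, and their spread may therefore be technical only. The median chrM cluster was 23 nt long in replicate 1 and 19 nt in replicate 2, against 69 and 66 nt over all clusters. No test across the 2 lysates was run, and the results are values in each lysate beside those of all clusters.

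The mouse mitochondrial genome is a small circle that encodes 2 ribosomal RNAs, 22 transfer RNAs and 13 proteins of the respiratory chain, 37 genes in all. Both strands are transcribed as long RNAs that are cut apart largely at the tRNAs lying between the other genes. The + strand carries the sense sequence of 28 genes, and the − strand that of ND6 and 8 tRNAs. PTBP1 is known as a protein of the nucleus and cytoplasm that binds pyrimidine-rich RNA, while mitochondrial RNA stays inside the organelle. Gene names and positions below are those of the mouse RefSeq table of GRCm38, the assembly also called mm10. Sequence of the mitochondrial genome was not used here.

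Clusters lay on 23 of the 37 mitochondrial genes, and the classes of RNA stood far apart. Both rRNAs were lower in the immunoprecipitate than in input over every cluster, most protein-coding clusters of the + strand were higher, and the tRNAs were mixed. Of the protein-coding clusters of both strands, 74.4% in replicate 1 and 72.3% in replicate 2 were above 0. These shares are near those of all clusters, 72.9% and 71.5%. The median log2 fold was 1.20 in replicate 1 and 0.95 in replicate 2 over protein-coding clusters (90 and 101 clusters). It was 0.22 and 1.345 over tRNA clusters (27 and 29), and −3.76 and −3.81 over rRNA clusters (44 and 51). The difference of protein-coding minus rRNA clusters was 4.86 ± 0.14 log2 units (SD, n = 2 lysates), far beyond the gap between lysates. Protein-coding minus tRNA clusters gave 0.98 in replicate 1 and −0.40 in replicate 2, so these classes had no settled order. Over all chrM clusters the median was 0.15 and 0.38, against 0.62 and 0.62 over all clusters of the tables. This order depended on how clusters were counted. With touching chrM clusters joined, each joined region taking its highest fold, the median was 0.62 and 0.78, and in clusters of at least 30 nt it was 0.68 and 0.80. Without the rRNAs it was 0.97 and 1.01. In these comparisons the clusters of the whole tables were neither joined nor filtered.

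**Figure D1:**
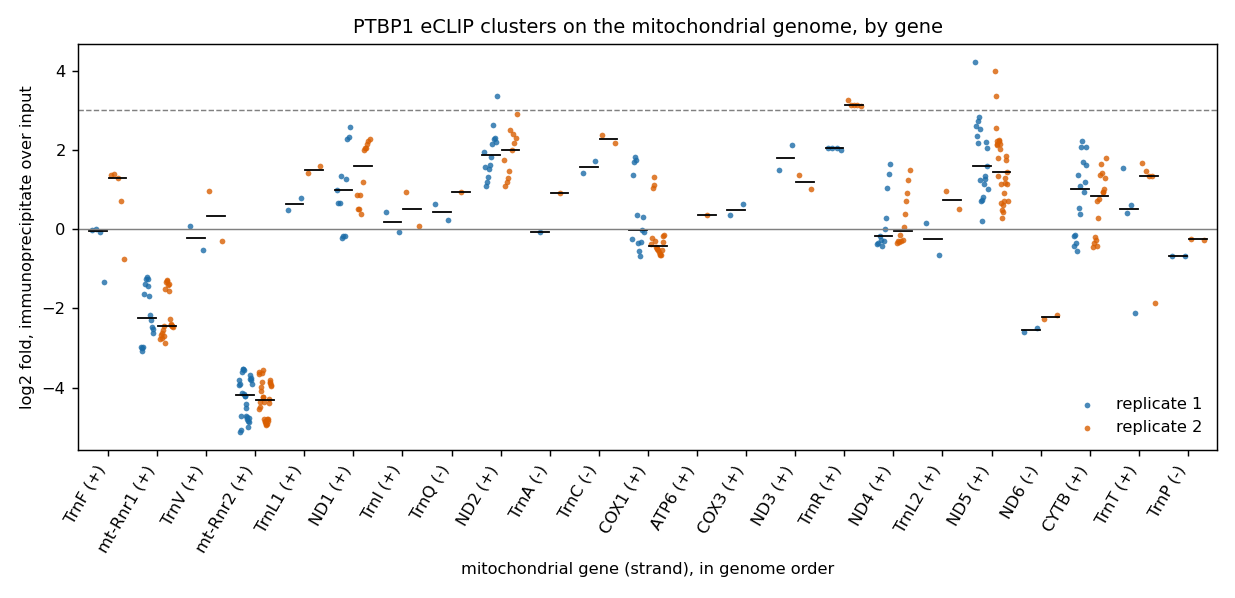
Log2 fold of every cluster (points) by mitochondrial gene, replicate 1 left and replicate 2 right in each gene, with the strand in brackets; black bars are medians, the solid line marks 0 and the dashed line a log2 fold of 3. The rRNA genes and ND6 lie below −1 throughout, and ND2, ND5 and TrnR reach highest.

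The mitochondrial clusters combined strong p-values with modest folds. A cluster is called enriched here where its log2 fold and its −log10 p both reach 3. This held for 2 chrM clusters (1.24%) in replicate 1, against 6.31% of all clusters. In replicate 2 it held for 7 (3.87%), against 4.71% of all clusters. These lay in ND2 and ND5 in replicate 1, and in ND5 and TrnR in replicate 2. The 5 in TrnR were touching pieces of 1 stretch that covered 59 nt of the gene. Without the stretch from COX2 to ND4L, which holds TrnR, the share in replicate 2 was 1.16%. With touching chrM clusters joined, and those of the whole tables not joined, the shares were 3.28% in replicate 1 and 3.57% in replicate 2. By the p alone, 76 chrM clusters (47.2%) passed in replicate 1, against 8.81% of all clusters. In replicate 2, 92 (50.8%) passed, against 7.5%. With the fold limit lowered to 2, 25 (15.5%) passed in replicate 1 and 27 (14.9%) in replicate 2, against 8.43% and 7.05% of all clusters. With a limit of 1, 58 (36.0%) and 64 (35.4%) passed, against 8.78% and 7.46%. With the fold limit at 3 the chrM share was thus below that of all clusters in replicate 1 and near it in replicate 2. With the limit at 2 or 1 the chrM share was above that of all clusters in both. Clusters with any positive fold made up 51.6% and 53.6% on chrM, against 72.9% and 71.5% of all clusters. The deposited −log10 p stops at 400. That limit was reached by 26 chrM clusters in replicate 1 and 37 in replicate 2, against 0.108% and 0.0903% of all clusters, at log2 folds as low as 0.78 and 0.97. Most folds in these tables recur in many clusters, and only 1.36% and 1.34% of all clusters had a fold found once in the table. Among chrM clusters it was 93.2% and 92.3%. Folds of −1 or lower were found in 48 chrM clusters (29.8%) in replicate 1 and 54 (29.8%) in replicate 2, against 7.92% and 8.1% of all clusters. The share far below input was larger too, with 30 clusters (18.6%) at a log2 fold of −3 or lower in replicate 1, against 0.781% of all clusters, and 30 (16.6%) in replicate 2, against 0.597%. All of these were in rRNA: 28 in mt-Rnr2 and 2 in mt-Rnr1 in replicate 1, and 30 in mt-Rnr2 in replicate 2. The deposited p is 0 on the −log10 scale for every negative fold, so depletion has no p.

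Mitochondrial ribosomal RNA held the clusters farthest below input on chrM. mt-Rnr2 (Entrez gene 17725), the 16S rRNA of the large mitochondrial ribosomal subunit, spans chrM 1094 to 2675. Its 28 clusters in replicate 1 had log2 folds from −5.11 to −3.53, with a median of −4.18. The 30 clusters of replicate 2 ran from −4.94 to −3.56, with a median of −4.32. These medians equal 18.2-fold and 20.0-fold lower levels in the immunoprecipitate. mt-Rnr1 (Entrez gene 17724), the 12S rRNA of the small subunit, spans chrM 70 to 1024 and was less depleted. It had medians of −2.23 and −2.44, with ranges from −3.07 to −1.22 over 16 clusters in replicate 1 and from −2.86 to −1.30 over 21 in replicate 2. The ranges of the 2 rRNAs did not overlap in either lysate.

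Depletion was uneven within each rRNA. Ranked by the higher fold of each pair, the 5 lowest pairs of overlapping clusters fell between 1784 and 1964 in mt-Rnr2. From 1835 to 1956 the log2 fold was −4.99 in replicate 1, and the paired cluster of replicate 2 from 1892 to 1964 had −4.83. In replicate 1 the lowest single value, −5.11, lay outside that stretch, at 1322 to 1323, where replicate 2 had −4.55. Near the 3′ end of mt-Rnr2 the depletion was smaller, with −3.69 at 2499 to 2524 in replicate 1 and −3.81 at 2507 to 2522 in replicate 2. It was as small in the 5′ part, with −3.61 at 1403 to 1426 in replicate 1 and −3.56 at 1396 to 1429 in replicate 2. The lysates differed at 1675 to 1679, where replicate 1 had its smallest depletion of mt-Rnr2, −3.53. Replicate 2 had −4.23 there, at 1673 to 1678. In mt-Rnr1 the middle of the gene was least depleted. The cluster from 660 to 664 had −1.22 in replicate 1 and that from 660 to 663 had −1.30 in replicate 2, against −3.07 at 187 to 234 and −2.68 at 187 to 207 near the 5′ end.

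**Figure D2:**
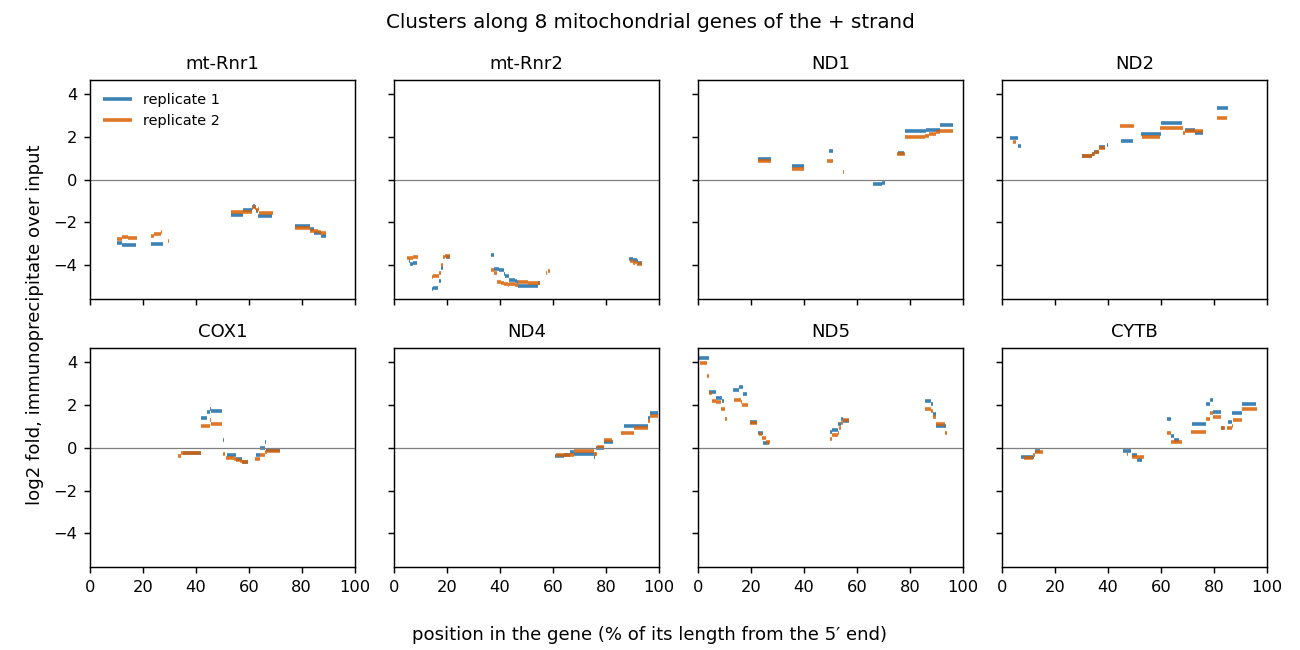
Log2 fold (vertical axis) of each cluster, drawn as a bar over the stretch it covers, by position in the gene in % of its length from the 5′ end, for the 2 rRNAs and 6 mRNAs in both replicates. ND5 starts above 3.9 in both lysates, ND1, ND4 and CYTB are highest toward their 3′ ends, and the rRNAs stay below −1.

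Complex I mRNAs held the highest sites of the mitochondrial genome. Complex I is the NADH dehydrogenase at the entry of the respiratory chain, and 7 of its subunits are encoded here. ND5 (Entrez gene 17721, chrM 11742 to 13565) carried the highest site in both lysates, directly at its 5′ end. In replicate 1 the log2 fold reached 4.21 between 11751 and 11817, and in replicate 2 it reached 3.99 between 11755 and 11802, both with −log10 p of 400. They begin 9 and 13 nt after the annotated start of the gene and equal 18.5-fold and 15.8-fold higher levels than input. This was the 1 site where both replicates passed the enriched threshold in overlapping clusters. Just upstream, the tRNA gene TrnL2 had −0.67 in replicate 1 and 0.50 in replicate 2 in its cluster from 11701 to 11742. Downstream of the 5′ site the folds of ND5 were lower, with a further maximum of 2.84 at 12022 to 12047 in replicate 1 and 2.25 at 11987 to 12020 in replicate 2. They then dropped to 0.20 at 12188 to 12232 in replicate 1 and 0.28 at 12210 to 12233 in replicate 2. Toward the 3′ end the cluster from 13306 to 13348 had 2.19 in replicate 1, and that from 13308 to 13345 had 1.84 in replicate 2. All 19 clusters of ND5 in replicate 1 and all 27 in replicate 2 were above 0, with medians of 1.60 and 1.45.

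ND2 (Entrez gene 17717, chrM 3914 to 4951) had the highest median of the mRNAs, 1.88 in replicate 1 and 1.99 in replicate 2. Its 14 clusters in replicate 1 and 11 in replicate 2 were all above a log2 fold of 1 with −log10 p above 3. The strongest lay toward the 3′ end, at 4758 to 4799 with 3.36 in replicate 1 and at 4758 to 4796 with 2.90 in replicate 2, on either side of the enriched threshold. The next pairs were at 4535 to 4617 with 2.63 in replicate 1 and at 4534 to 4621 with 2.40 in replicate 2, and at 4630 to 4669 with 2.31 and at 4631 to 4699 with 2.29. The lysates were less close at 4379 to 4427, with 1.81 in replicate 1, and at 4377 to 4431, with 2.50 in replicate 2. In ND1 (Entrez gene 17716, chrM 2751 to 3707) the folds were also highest near the 3′ end, 2.57 at 3624 to 3672 in replicate 1 and 2.27 at 3625 to 3672 in replicate 2. The median of ND1 was 0.97 and 1.58. ND3 (Entrez gene 17718) had 2 clusters per lysate, with medians of 1.80 and 1.19. Their −log10 p was low, 3.525 and 4.197 in replicate 1 and, short of the limit of 3, 2.781 and 1.432 in replicate 2.

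ND4 (Entrez gene 17719, chrM 10167 to 11544) differed from ND2 and ND5, with medians of −0.19 in replicate 1 and −0.05 in replicate 2. Its clusters lay in the 3′ part of the gene, from 11007 onward, and started just below 0. The 5′ part of ND4 falls in a gap without + strand clusters that begins in the stretch from COX2 to ND4L, described below. The last cluster before the 3′ end, from 11500 to 11540, had 1.64 in replicate 1, and that from 11499 to 11541 had 1.48 in replicate 2. Spearman's correlation of distance from the 5′ end with fold was 0.855 over 11 clusters of ND4 in replicate 1 and 0.972 over 12 in replicate 2. In CYTB it was 0.782 and 0.85 over 16 clusters in each lysate. In ND2 it was 0.793 over 14 clusters and 0.791 over 11, and in ND1 0.555 over 11 and 0.909 over 12. The folds of these 4 mRNAs were thus higher toward the 3′ end. It was negative in ND5, with −0.53 over 19 clusters and −0.651 over 27, and in COX1, with −0.418 over 13 and −0.375 over 18. These values describe neighbouring clusters of 1 transcript, which are not independent.

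ND6 was the exception among complex I mRNAs. ND6 (Entrez gene 17722, chrM 13552 to 14070) is the 1 mRNA encoded on the − strand. It had −2.61 at 13601 to 13726 and −2.50 at 13840 to 13898 in replicate 1. In replicate 2 it had −2.28 at 13601 to 13733 and −2.17 at 13845 to 13897. Its 4 clusters were thus all below those of every other mRNA, and their medians of −2.55 and −2.23 lay beside those of mt-Rnr1. The 3′ end of ND6 faces that of ND5 on the opposite strand, where ND5 clusters had 1.00 at 13383 to 13450 in replicate 1 and 0.71 at 13444 to 13459 in replicate 2.

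CYTB and COX1 encode subunits of complexes III and IV. CYTB (Entrez gene 17711, chrM 14145 to 15288) was below 0 in its 5′ part, with −0.42 at 14227 to 14282 in replicate 1 and −0.45 at 14237 to 14279 in replicate 2. Toward the 3′ end it reached 2.22 at 15043 to 15056 in replicate 1, where replicate 2 had 1.64, and 2.07 at 15182 to 15243 in replicate 1, where replicate 2 had 1.80 up to 15244. Its medians were 1.01 and 0.85. COX1 (Entrez gene 17708, chrM 5328 to 6872), the catalytic subunit of cytochrome c oxidase, had medians of −0.03 and −0.43, but 1 stretch stood above its neighbours. At 6026 to 6034 the log2 fold was 1.83 in replicate 1 and 1.32 in replicate 2, both with −log10 p of 400. On its 5′ side the folds were −0.25 at 5871 to 5976 in replicate 1 and −0.22 at 5861 to 5977 in replicate 2. On its 3′ side they were −0.68 at 6214 to 6248 in replicate 1 and −0.66 at 6214 to 6252 in replicate 2.

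Transfer RNAs differed between the lysates more than the other classes. Of 22 mitochondrial tRNA genes, 11 had clusters, each in both tables, and the median of all 11 was higher in replicate 2. Of the 27 overlapping tRNA pairs, 26 were higher in replicate 2, with a median difference of −0.82 log2 units, replicate 1 minus replicate 2. For protein-coding pairs the median difference was 0.15, with 64 of 83 higher in replicate 1, and for rRNA pairs it was 0.02, with 22 of 44 higher in replicate 1. The labels name no batch, kit or run that separates the lysates.

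TrnR, the tRNA for arginine (Entrez gene 17741, chrM 9808 to 9875), was the highest tRNA, with log2 folds from 2.00 to 2.05 over 4 clusters in replicate 1 and from 3.10 to 3.26 over 5 in replicate 2. All 5 clusters of replicate 2 were enriched and none of replicate 1. In each lysate they were touching pieces of 1 stretch, and most had the same fold, 2.05 in replicate 1 and 3.14 in replicate 2. They are thus not separate sites. Their −log10 p was at most 21.4 over both lysates, while TrnL1 reached 400 in replicate 2 at folds of 1.40 and 1.60. TrnR lies in the sparse stretch from COX2 to ND4L, described below. Whether reads with several matches affect its folds was not tested. TrnC, the tRNA for cysteine, on the − strand, followed with medians of 1.57 and 2.27. TrnL1, a leucine tRNA between mt-Rnr2 and ND1, had 0.63 and 1.50, and TrnT, the tRNA for threonine, 0.51 and 1.35. TrnQ and TrnI were above 0 in both lysates as well. TrnF, TrnV, TrnA and TrnL2 changed sign between lysates, TrnF with medians of −0.05 in replicate 1 and 1.30 in replicate 2. TrnP, the proline tRNA of the − strand, was below 0 in both, with −0.69 and −0.26.

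The tRNAs of the + strand were higher toward their 5′ ends than at their 3′ ends. Of the 7 with at least 2 clusters in each lysate, 6 had a lower fold in the cluster nearest the 3′ end than in the cluster nearest the 5′ end, in both lysates, and TrnL1 had a higher one. The difference was largest in TrnT. Its 3′ cluster had −2.11 at 15334 to 15357 in replicate 1 and −1.87 at 15330 to 15357 in replicate 2. Its 5′ cluster had 1.55 at 15298 to 15315 and 1.66 at 15298 to 15310. In TrnF, which adjoins mt-Rnr1, the 3′ cluster up to position 70 had −1.34 and −0.75, against −0.017 and 1.38 at the 5′ end. Among the 6, the difference of the 3′ minus the 5′ cluster was smallest in TrnR, with −0.055 in replicate 1 and −0.16 in replicate 2. In all 7 tRNAs the cluster nearest the 3′ end runs past the annotated gene end by a few nucleotides, in both lysates. On the − strand TrnC and TrnP had 2 clusters in each lysate, and neither had a lower 3′ end in both.

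By strand, the mitochondrial genome was covered unequally. The + strand held 152 clusters in replicate 1 and 173 in replicate 2, and the − strand 9 and 8. Every − strand cluster lay over a − strand gene, on 5 of the 9, and no cluster was antisense to a gene or between genes. The difference of the − strand median minus the + strand median was −0.15 ± 0.13 (SD, n = 2 lysates). Weighted by cluster length it was −3.12 in replicate 1 and −2.88 in replicate 2, and without the rRNAs −1.13 and −0.75. With means in place of medians it was 0.030 and 0.47, so its sign and size depended on the summary used. Among tRNAs alone the − strand median minus the + strand median was −0.07 in replicate 1 and −0.43 in replicate 2, within the gap between the lysates.

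**Figure D3:**
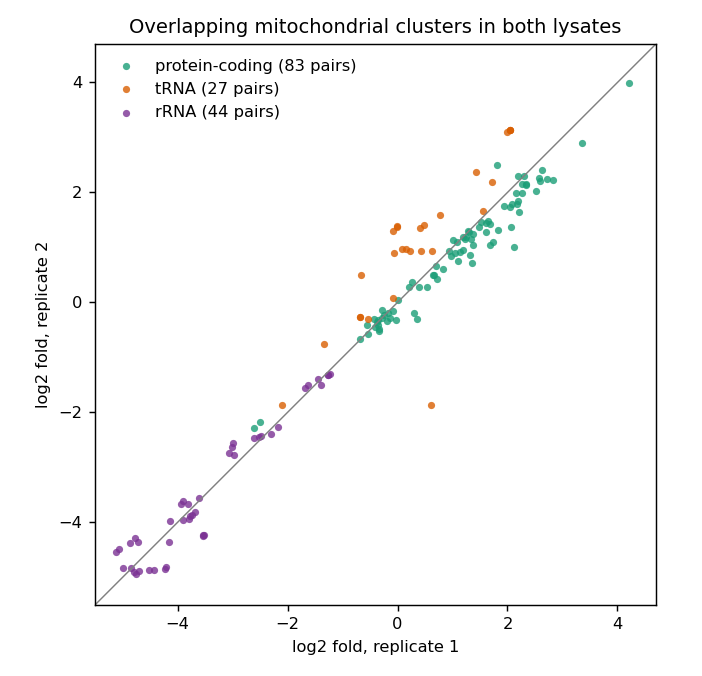
Log2 fold of each replicate 1 cluster (horizontal axis) and of the replicate 2 cluster sharing most nucleotides with it (vertical axis), coloured by class, with the line of equality. Protein-coding and rRNA pairs follow the line, and tRNA pairs lie above it, except for 1 pair of TrnT.

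The lysates were close in where clusters lay and in their folds. On the + strand 4124 nt were covered in both, 94.0% of the nucleotides covered in replicate 1 and 92.4% of those in replicate 2. Of the 161 chrM clusters of replicate 1, 154 (95.7%) overlapped a cluster of replicate 2 on the same strand, against 56.0% of all clusters. Across these 154 pairs Pearson's correlation was 0.98 and Spearman's 0.96, against 0.79 and 0.74 over 210643 pairs of all clusters. Both describe clusters, many of which share a transcript, and not independent samples. The standard deviation of the difference was 0.50 log2 units on chrM, against 1.01 over all pairs. By class it was 0.26 for protein-coding, 0.33 for rRNA and 0.74 for tRNA pairs. The same 15 coordinates occurred in both tables, with an identical fold in 0 of them.

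Ordered by the mean of the gene medians of both lysates, the 21 genes with clusters in both ran from TrnR, with 2.05 and 3.14, through ND2, TrnC, ND5, ND3, ND1, TrnL1, TrnT and CYTB to ND6 with −2.39 ± 0.23 (SD, n = 2 lysates) and mt-Rnr2 with −4.25 ± 0.097. Of the 20 steps between neighbours, 2 were larger than the gap between lysates of either gene. They lay between TrnP and mt-Rnr1 and between ND6 and mt-Rnr2. The order within the upper 18 genes is thus not resolved from one neighbour to the next.

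A long stretch of the mitochondrial genome was nearly empty of clusters. From the start of COX2 to the end of ND4L, chrM 7013 to 10173, the + strand held 8 clusters in each lysate, covering 8.23% of its length in replicate 1 and 7.02% in replicate 2. Elsewhere on the + strand, up to the end of TrnT, clusters covered 33.8% and 34.8%. COX2 and COX3 of complex IV, ATP8 and ATP6 of ATP synthase and ND4L lie there. COX2, ATP8 and ND4L had no cluster placed in them. ATP6 had 1 cluster with 0.36 in replicate 2 and 0 in replicate 1, and COX3 had 2 with 0.36 and 0.62 in replicate 1 and 0 in replicate 2. Each of these ATP6 and COX3 clusters had a −log10 p of 0. TrnR and ND3 account for the remaining clusters there. The longest gap without a + strand cluster started at 6440 in both lysates, and it ended at 8668 in replicate 1 and at 8126 in replicate 2. Another ran from 9877 to 11006 in replicate 1, where replicate 2 had 9878 to 11011.

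Part of this stretch has an annotated nuclear counterpart. Chromosome 1 carries the pseudogenes Gm10925, listed with the synonym mt-Atp6, at 24613971 to 24614651 and Gm10222 at 24612404 to 24612700. Their lengths of 681 and 297 nt equal those of ATP6 and ND4L. The pseudogenes lie 1951 nt apart, counted between their higher ends, and the starts of ATP6 and ND4L 1950 nt apart. Reads from such a stretch may match both places. How the submitters' mapping treated reads with several matches is not given in the sources used here, and its part in the missing clusters was not tested. Beside and beyond Gm10925, between 24613603 and 24616192 on chromosome 1, 4 clusters were called in replicate 1 and 3 in replicate 2, all on the − strand and none inside either pseudogene. Their highest log2 fold was 2.36 in both, and none had a −log10 p above 0.997. Counted from Gm10925 as the counterpart of ATP6, those of replicate 1 correspond to chrM 6388 to 6545, in COX1, and 8649 to 8975, in COX3. Those of replicate 2 correspond to 6386 to 6538 and 8888 to 8944. How far the nuclear counterpart reaches on chrM was not tested.

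**Figure D4:**
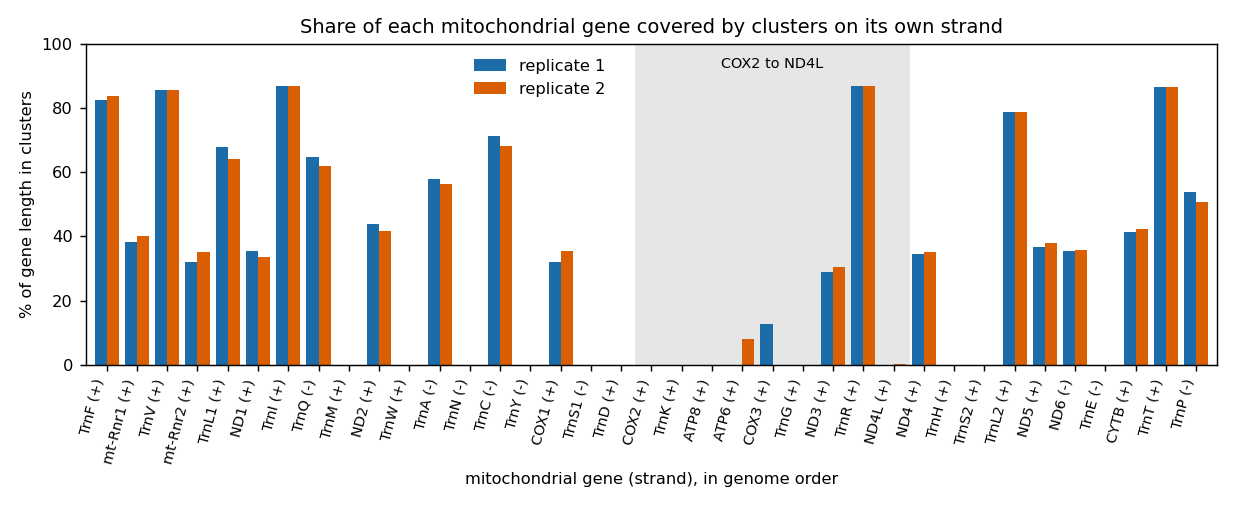
Share of each of the 37 mitochondrial genes covered by clusters on its own strand, in % of gene length, in genome order, for both replicates; the grey band marks COX2 to ND4L. Within the band only ND3 and TrnR reach above 20% in both replicates.

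Clusters in respiratory chain genes of the mitochondrial genome differed from those in respiratory chain genes of the nucleus. Nuclear clusters, here and in the lists below, were placed anywhere in the gene span, with exons and introns not separated. They may thus come from unspliced RNA as well as from mRNA. All 47 matched nuclear respiratory chain genes had clusters in both replicates, 459 and 460 of them. Their median log2 fold was −1.95 in replicate 1 and −2.05 in replicate 2. Mitochondrial complex I clusters had medians of 1.33 and 1.26, against −0.38 in both replicates for those of 19 nuclear complex I genes. Ndufs4 held 53 of the 229 nuclear complex I clusters in replicate 1, and the median over the 19 gene medians was lower, −1.96 and −1.72, with 13 genes below 0 in both lysates. CYTB had 1.01 and 0.85, against −3.21 and −3.004 for clusters of 6 nuclear complex III genes, whose median over genes was −1.79 and −2.33. Mitochondrial complex IV clusters, 13 of 15 in replicate 1 and all 18 in replicate 2 in COX1, had 0.29 and −0.43. COX1 alone had −0.03 and −0.43, and the other clusters of replicate 1, in COX3, had a −log10 p of 0. Clusters of 8 nuclear complex IV genes had −3.66 and −3.69, and the median over these genes was −3.74 and −3.62. Complex V had 1 mitochondrial cluster, of ATP6 in replicate 2, with 0.36 and a −log10 p of 0, too little for a comparison. Clusters of 9 nuclear complex V genes had −3.61 and −3.41, and the median over these genes was −3.96 and −3.90. The highest single folds were 4.21 and 3.99 on chrM, in ND5, against 4.62 and 5.05 in the nuclear list.

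In the nuclear list, 38 genes had a median below 0 in both replicates and 3 above, against 2991 and 7735 of 13330 genes with clusters in both. Among members with at least 3 clusters in each lysate, Ndufs4 had the highest gene median, 1.21 in replicate 1 and 1.43 in replicate 2, followed by Ndufa5 with 0.67 and 1.43. Uqcrc2 had 0.14 and 0.12, and Atp5c1 0.36 and −0.16. An enriched cluster in both replicates was present in 5 of the 47 genes (10.6%), against 26.3% of all genes.

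Cytosolic ribosomal protein genes were depleted nearly as far as mitochondrial rRNA, with 58 of 65 genes below 0 in both lysates. Their clusters, 211 in replicate 1 and 212 in replicate 2, had medians of −3.16 and −2.92. The mitochondrial rRNA medians were −3.76 and −3.81. The difference of all chrM clusters minus ribosomal protein clusters was 3.31 ± 0.010 (SD, n = 2 lysates). Rpl3l, a ribosomal protein gene of striated muscle, was the 1 gene above 0 in both, with 1.81 and 2.21, and among members with at least 3 clusters in each lysate Rps24, Rps15a and Rpl22 followed, with gene medians between −0.93 and −0.23.

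Nuclear genes for the expression of the mitochondrial genome went both ways. Of 42 matched genes, 36 had clusters in both replicates, with a median over clusters of 0.038 and 0.035, 13 genes above 0 in both and 15 below. Enriched clusters in both replicates were present in 7 of the 36 (19.4%), against 26.3% of all genes. Among members with at least 3 clusters in each lysate, Mtif2, a translation initiation factor of mitochondria, led with gene medians of 3.27 in replicate 1 and 1.41 in replicate 2. Mterf1b, of the mitochondrial termination factor family, had 3.14 and 1.21, the mitochondrial poly(A) polymerase gene Mtpap 1.74 and 1.34, and Ptcd1 1.23 and 1.35. No cluster of Mterf1b was enriched in either lysate. Polrmt, the mitochondrial RNA polymerase, had −0.30 and −0.97, and Tfam, which packages mitochondrial DNA and starts its transcription, −1.19 and −1.55. Tufm, the mitochondrial translation elongation factor Tu, had −4.18 and −4.63 from 1 cluster in each lysate. Polrmt, Tfam and Tufm were chosen after their values were seen.

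**Figure D5:**
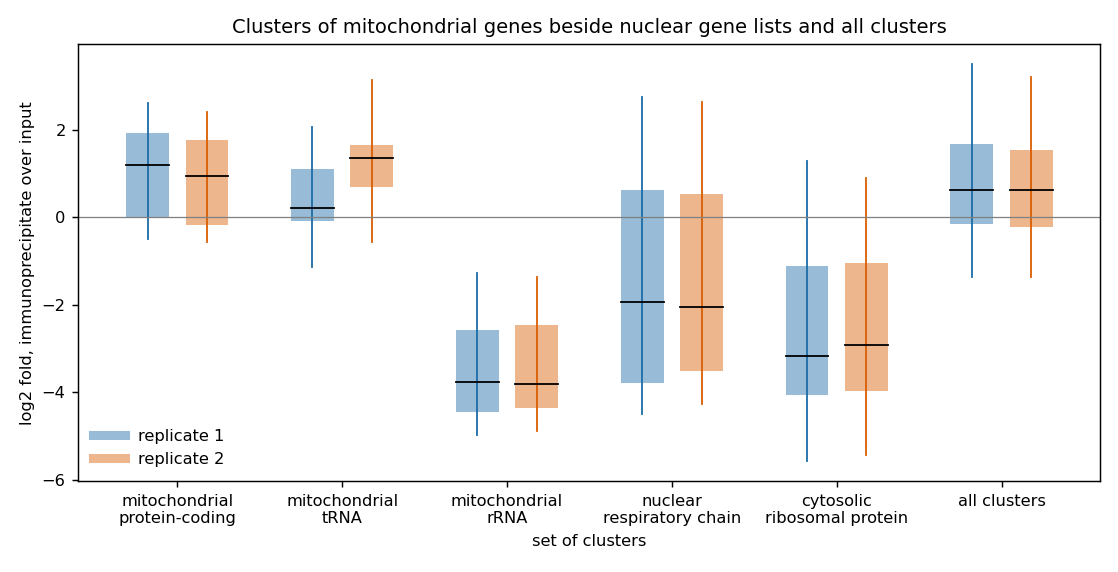
Log2 fold of clusters in 3 mitochondrial classes, 2 nuclear gene lists and all clusters, by replicate; black bars are medians, boxes the middle 50% and lines the span from the 5th to the 95th percentile. Mitochondrial protein-coding clusters lie above both nuclear lists, and mitochondrial rRNA lies lowest.

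Markers of the cell types of heart were present among the clusters. All 8 cardiomyocyte, 6 fibroblast, 4 endothelial, 3 macrophage and 2 erythroid markers had clusters in both replicates. Median log2 folds over their clusters were 0.0026 and 0.094 for cardiomyocyte, 1.28 and 1.31 for fibroblast, 1.50 and 1.36 for endothelial, 0.62 and 0.44 for macrophage and −1.46 and −1.77 for erythroid markers. Ryr2, the calcium release channel of cardiomyocytes, held 524 of 662 cardiomyocyte marker clusters in replicate 1 and 534 of 690 in replicate 2. Over the 8 cardiomyocyte genes the median was −1.99 and −1.91. Tnni3, Tnnt2, Myl2, Actc1 and Pln were below 0 in both lysates, and Myh6, Myl3 and Ryr2 above. Among macrophage markers, Adgre1 held 67 of 75 clusters in replicate 1 and 52 of 63 in replicate 2. Over the 3 macrophage genes the median was 0.62 and −0.16, with Cd68 and Csf1r above 0 in replicate 1 and below it in replicate 2. The erythroid medians rest on 4 clusters in replicate 1 and 5 in replicate 2. Mitochondrial RNA is made in every one of these cell types except mature erythrocytes, and its share from each was not tested.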

How the data were processed

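Clusters were deposited as a table for each replicate. Per the file headers these give position, strand, log2 fold and −log10 p-value; the fold compares an immunoprecipitate with its own size-matched input. STAR 2.6.0c, cutadapt 2.7 and UMI-tools 0.5.1 are listed in the submitters' processing notes, beside the builds mm10 and hg38; the cluster caller is not given in the sources used here. Inputs were paired with immunoprecipitates by the numbers in the sample titles. Coordinates were taken as mm10 and turned to counting from 1, since touching clusters share an edge. Mitochondrial genes are those of the RefSeq table of GRCm38, with strands from textbook knowledge, and a cluster belongs to the gene of its own strand that holds its midpoint. Touching clusters were counted separately. Clusters of the lysates were paired by most shared nucleotides, at least 1. Nuclear clusters were placed the same way in 30078 gene spans, with the strand from RefSeq promoters (27025 genes) or else from at least 3 clusters in the span. Of the listed symbols, Mtif3 and Ndufa2 were not matched.

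The named genes are every mitochondrial gene with a cluster, the 5 highest pairs by their lower fold and the 5 lowest by their higher fold, and up to 4 genes with the highest medians of each nuclear list, among those with at least 3 clusters in each lysate. Members and lists were chosen with earlier results of these data known. Scripts were tested on simulated clusters. Python 3.11.15, pandas 2.3.3, numpy 2.4.6 and scipy 1.17.1 were used. Alternatives were the thresholds, length weighting, means, cluster length, joining, placement by overlap, a stricter overlap and each lysate alone. Sequence features were planned but not analysed here.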

Additional observations from a re-analysis of the deposited data

How the results depend on the processing

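No paired analysis was possible because the tables hold no separate values of immunoprecipitates and inputs; each deposited fold is itself the comparison within a lysate. The enriched share of chrM clusters was 2.56%, 15.2% with the fold limit at 2, 35.7% with it at 1, and 1.23% without the stretch from COX2 to ND4L, which holds TrnR. The median over chrM clusters was 0.26, and it moved to 0.54 when weighted by length, to 0.74 in clusters of at least 30 nt, to 0.99 without the rRNAs and to −0.29 as a mean. The strand difference, − minus +, moved from −0.15 to −2.998 when weighted by length, where ND6 holds most of the covered − strand, to −0.37 in clusters of at least 30 nt, to −0.94 without the rRNAs and to 0.25 as a mean. The rRNA median was −3.70 weighted by length, against −3.79. Pearson's correlation between lysates was 0.89 without the rRNAs. Taking the median over genes of the gene medians, mitochondrial genes of all classes, rRNA and tRNA genes included, lay 3.48 above the nuclear respiratory chain. Over all chrM clusters the difference was 2.26. Against ribosomal protein genes the differences were 3.65 over genes and 3.31 over clusters. Of 24 alternatives, 10 stayed within the spread between lysates, 12 moved past it and 2 turned the sign. The other 16 left out 1 lysate, and say nothing of stability, since either of 2 values lies within 1 SD of their mean. The choices without the rRNAs and without the stretch from COX2 to ND4L were made after seeing the data. Placement by largest overlap changed 0 clusters. The sequence alternatives could not be computed. The cause of these moves was not tested where none is named.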
